A study of Homo sapiens with 9 samples.

Results

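The mRNAs of 10 growth factor receptor tyrosine kinases were read in an ovarian cancer line that had been made resistant to platinum and then treated with an inhibitor of the arginine methyltransferase PRMT5. The genes were EGFR, ERBB2 and ERBB3 of the ERBB family, the HGF receptor MET, AXL and TYRO3 of the TAM family, FGFR1 and FGFR2 of the FGF receptor family, and IGF1R and INSR of the insulin receptor family. They were chosen by symbol as members of these families, with earlier results of these data known. Each was found by its stable Ensembl ID among the 61487 rows of the count table. All 10 passed the filter on low counts, which left 14630 genes to test, and the least abundant, INSR, still had 201 to 547 counts per library.

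The cells were OVCAR4, an established human line of high-grade serous ovarian cancer. Pt-resistant cells derive from the same line by long exposure to cisplatin, so they stand for a single resistant derivative. The 3 groups, with 3 libraries each, were Pt-resistant cells treated with EPZ015666 (PRMT5i, a small-molecule inhibitor of PRMT5) at 5 uM for 5 days, Pt-resistant cells given DMSO, and naive cells given DMSO. All carried the same wild-type genotype label. Replicates were wells seeded in triplicate, and the tests weigh each difference against the well-to-well spread, which may be only technical. There was no group of naive cells with the inhibitor among these libraries.

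Receptor tyrosine kinases span the plasma membrane and, when a growth factor binds outside, pair up and phosphorylate tyrosines on each other and on docked adaptors. The adaptors pass the signal to the RAS-MAPK and PI3K-AKT pathways, which drive growth, survival and movement. ERBB2 has no known ligand of its own and ERBB3 has little kinase activity, so they act mainly as partners in ERBB dimers, while AXL and MET are best known in carcinoma cells for invasive and drug-tolerant states.

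PRMT5 mRNA itself averaged 117 ± 10.6 CPM in PRMT5i-treated, 117 ± 10.1 CPM in Pt-resistant and 121 ± 1.48 CPM in naive cells (SD, n = 3; CPM are counts scaled to a common library size), with an adjusted p of 0.959 for PRMT5i against DMSO. Library totals ran between 14320929 and 19114811 counts. Of 8 serous epithelial markers 7 were tested, and WT1 had 17 counts or fewer in each group. Of the 7, 1 was higher and 5 were lower in Pt-resistant than in naive cells, and PRMT5i raised 2 and lowered 4. Over all genes tested, 29.8% were higher and 29.4% lower in Pt-resistant cells, and PRMT5i raised 31.9% and lowered 30.5%. KRT7 was the 1 higher, at 1638 ± 15.1 CPM in treated, 2333 ± 76.8 CPM in Pt-resistant and 1929 ± 81.1 CPM in naive cells, whereas EPCAM was among the lower (log2 fold change -0.65 ± 0.08, adjusted p = 3.65e-07). Of 7 immune markers 4 were tested, and the summed level of the list was 5.72 to 7.48 CPM in treated, 0.661 to 1.01 CPM in Pt-resistant and 3.44 to 4.83 CPM in naive libraries, with MS4A1 at 0 counts outside naive cells. Of 8 stromal and endothelial markers 5 were tested, and the list summed to 94.7 to 110.4 CPM, 127 to 133 CPM and 143 to 161 CPM in the same order, with DCN at 2 counts or fewer in any group. Its members differed, since PECAM1 and CDH5 made up most of the sum and fell with PRMT5i (-0.40 ± 0.09 and -0.54 ± 0.10, adjusted p of 0.000396 and 4.34e-05), while COL1A1 rose (1.42 ± 0.17, adjusted p = 1.04e-07). The share of counts from mitochondrially encoded mRNAs was 6.26% to 8.31% in treated, 4.45% to 5.19% in Pt-resistant and 5.97% to 7.82% in naive libraries. The part of these differences in the receptor results was not tested, and in bulk RNA fewer cells of a kind and less mRNA per cell cannot be told apart.

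The 250 bases upstream of the start sites of AXL, MET and INSR are shown because AXL and MET were both higher under PRMT5i, whereas INSR, lower in the resistant line, did not pass there. The windows come from RefSeq on GRCh38.p14, at chr19:41218973-41219222 on the plus strand for AXL, chr7:116671946-116672195 on the plus strand for MET and chr19:7294415-7294664 on the minus strand for INSR. They read 5′ to 3′, with capitals on the GC box GGGCGG, the core of a site for SP-family factors, searched on both strands with overlaps allowed.
AXL: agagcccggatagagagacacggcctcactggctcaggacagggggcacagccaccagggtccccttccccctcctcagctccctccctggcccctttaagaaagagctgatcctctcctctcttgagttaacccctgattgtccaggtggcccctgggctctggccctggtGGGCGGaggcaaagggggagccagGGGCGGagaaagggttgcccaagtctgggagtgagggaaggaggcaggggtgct
MET: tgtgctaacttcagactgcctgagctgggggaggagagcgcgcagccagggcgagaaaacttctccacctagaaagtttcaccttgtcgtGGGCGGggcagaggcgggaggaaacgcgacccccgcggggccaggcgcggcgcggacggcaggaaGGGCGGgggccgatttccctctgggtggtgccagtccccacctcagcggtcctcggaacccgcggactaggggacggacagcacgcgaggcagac
INSR: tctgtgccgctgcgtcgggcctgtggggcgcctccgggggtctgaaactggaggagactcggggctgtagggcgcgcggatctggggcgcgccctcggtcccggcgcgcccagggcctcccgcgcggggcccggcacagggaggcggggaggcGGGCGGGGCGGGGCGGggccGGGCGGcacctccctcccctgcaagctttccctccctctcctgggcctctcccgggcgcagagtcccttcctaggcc
AXL and MET each held 2 GC boxes and INSR held 4, of which 3 overlap in a single run. All but ERBB2 of the 8 receptors with an entry held at least 1 GC box, 7 of 8, against 42.3% of 27305 promoter windows of the same length. Each window lies upstream of the first start listed for its gene. The 8 receptor windows ran from 64.4% (AXL) to 81.2% (IGF1R) G or C, and the 27305 windows were not matched for this. The AP-1 motif TGANTCA, the binding site of FOS and JUN dimers, was in 2 of 8 (ERBB2 and TYRO3) against 6.6% of all windows, and in none of the 3 shown. These are matches of letters only. ERBB3 and FGFR1 had no entry.

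The first comparison, Pt-resistant against naive cells, asked which receptors differ once the line no longer responds to cisplatin as before. AXL rose, whereas ERBB2, ERBB3, TYRO3, FGFR1, FGFR2, IGF1R and INSR fell. EGFR and MET did not pass. Of the 10 receptors 8 were called at an adjusted p under 0.05 by edgeR's quasi-likelihood test, 1 higher and 7 lower, beside 59.1% of all genes tested, 29.8% higher and 29.4% lower. The median log2 fold change was -0.47 over the receptors and 0.01 over all genes tested. The Pt-resistant and naive libraries did not overlap for 8 receptors, which was true of 62.5% of all genes. FGFR1, which fell, was the only receptor called with a change of at least 2-fold, beside 15.9% of all genes.

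The second comparison set PRMT5i-treated against DMSO-treated Pt-resistant cells, to find what the inhibitor alters in the resistant state. AXL, MET, TYRO3, FGFR1 and FGFR2 rose, ERBB3 fell, and EGFR, ERBB2, IGF1R and INSR did not pass. Here 6 of 10 receptors were called, 5 higher and 1 lower, beside 62.4% of all genes, 31.9% higher and 30.5% lower. The median log2 fold change was 0.11 over the receptors and 0.01 over all genes. The groups did not overlap for 6 receptors, beside 66.5% of all genes, and AXL was the only receptor called with at least 2-fold, beside 17.9% of all genes. Against naive cells, the treated cells had 3 receptors higher (AXL, MET and TYRO3), 6 lower and EGFR not passed, beside 63.4% of all genes called, 32.2% higher and 31.2% lower. There the groups did not overlap for 9 receptors, beside 66.4% of all genes, and AXL and FGFR1 were the 2 called with at least 2-fold, beside 19.8% of all genes. The 3 comparisons share libraries, so their values are given side by side and are not independent.

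**Figure D1:**
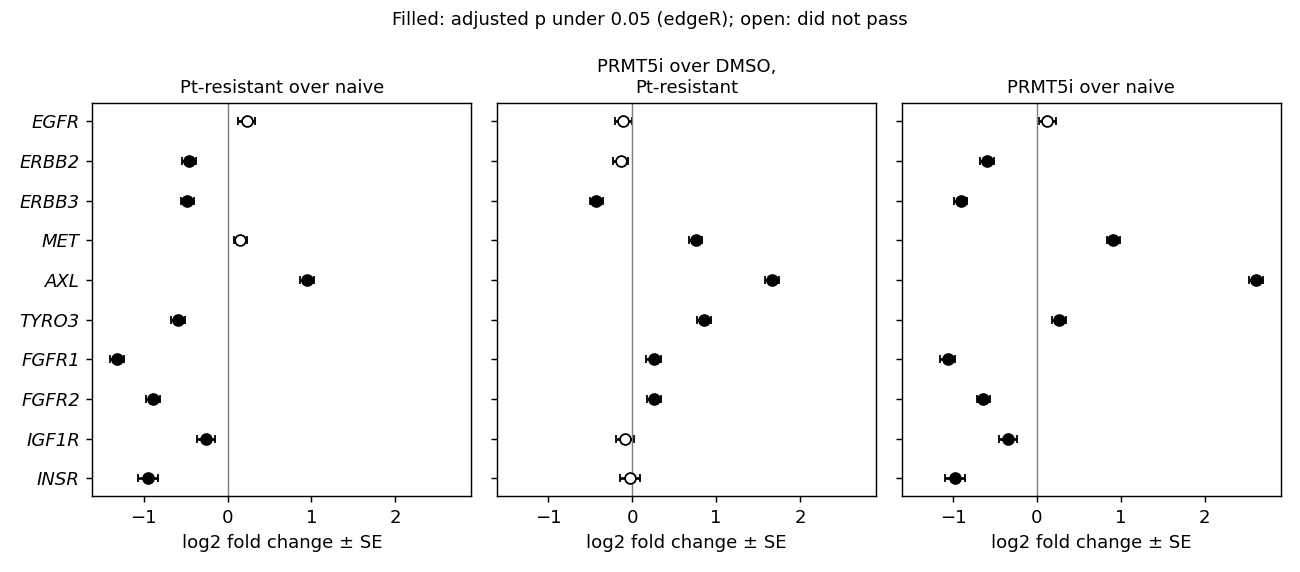
Log2 fold change (x axis, ± SE from edgeR) of each receptor (rows) in 3 comparisons (panels), filled where the adjusted p was under 0.05 and open where it was not. AXL lies right of 0 in all 3 panels, at 0.95, 1.67 and 2.61, while ERBB3 lies left of 0 in all 3, at -0.48, -0.43 and -0.91.

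AXL, the receptor for the vitamin K-dependent protein GAS6, showed the largest fold change of the 10, in treated against naive cells. Its mRNA stood at 223, 230.4 and 238 CPM in the PRMT5i-treated libraries, at 81.1, 67.9 and 69.2 CPM in the Pt-resistant and at 38.7, 36.2 and 38.0 CPM in the naive libraries. The 3 groups were fully apart, and the lowest treated library was above the highest Pt-resistant one by more than the whole Pt-resistant range. AXL was 1.93-fold higher in Pt-resistant than in naive cells (log2 0.95 ± 0.08 SE, adjusted p = 1.23e-09). PRMT5i raised it a further 3.17-fold over DMSO (log2 1.67 ± 0.08, adjusted p = 4.3e-14), which left treated cells 6.12-fold above naive ones (log2 2.61 ± 0.09, adjusted p = 1.09e-17).

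TYRO3, the second TAM receptor, took another course. It measured 42.3, 40.7 and 37.5 CPM in treated, 23.3, 21.5 and 21.8 CPM in Pt-resistant and 34.1, 32.4 and 33.7 CPM in naive libraries, with no overlap between groups. TYRO3 was lower in Pt-resistant than in naive cells (log2 fold change -0.59 ± 0.09, adjusted p = 4.3e-06) and higher with PRMT5i than with DMSO (0.86 ± 0.09, adjusted p = 1.19e-08). Treated cells were slightly above naive ones (0.27 ± 0.09, adjusted p = 0.00946). AXL and TYRO3 thus moved opposite ways in the resistant line and the same way under the inhibitor. MERTK, the third TAM receptor, fell in Pt-resistant cells (-0.91 ± 0.16, adjusted p = 4.69e-05) and had 0.29 ± 0.17 with PRMT5i (adjusted p = 0.149).

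MET, the receptor for hepatocyte growth factor, was the most abundant of the 10 per kilobase in every group. Its libraries read 441, 518 and 462 CPM in treated, 289, 277 and 273 CPM in Pt-resistant and 258, 238 and 259 CPM in naive cells. The lowest Pt-resistant library was above the highest naive one, but the difference was small and did not pass (0.15 ± 0.08, adjusted p = 0.0979). With PRMT5i, MET was 1.69-fold higher than with DMSO (0.76 ± 0.08, adjusted p = 1.17e-08), and all 3 treated libraries were far above the other 6. Against naive cells it was 1.88-fold higher (0.91 ± 0.08, adjusted p = 4.52e-10).

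**Figure D2:**
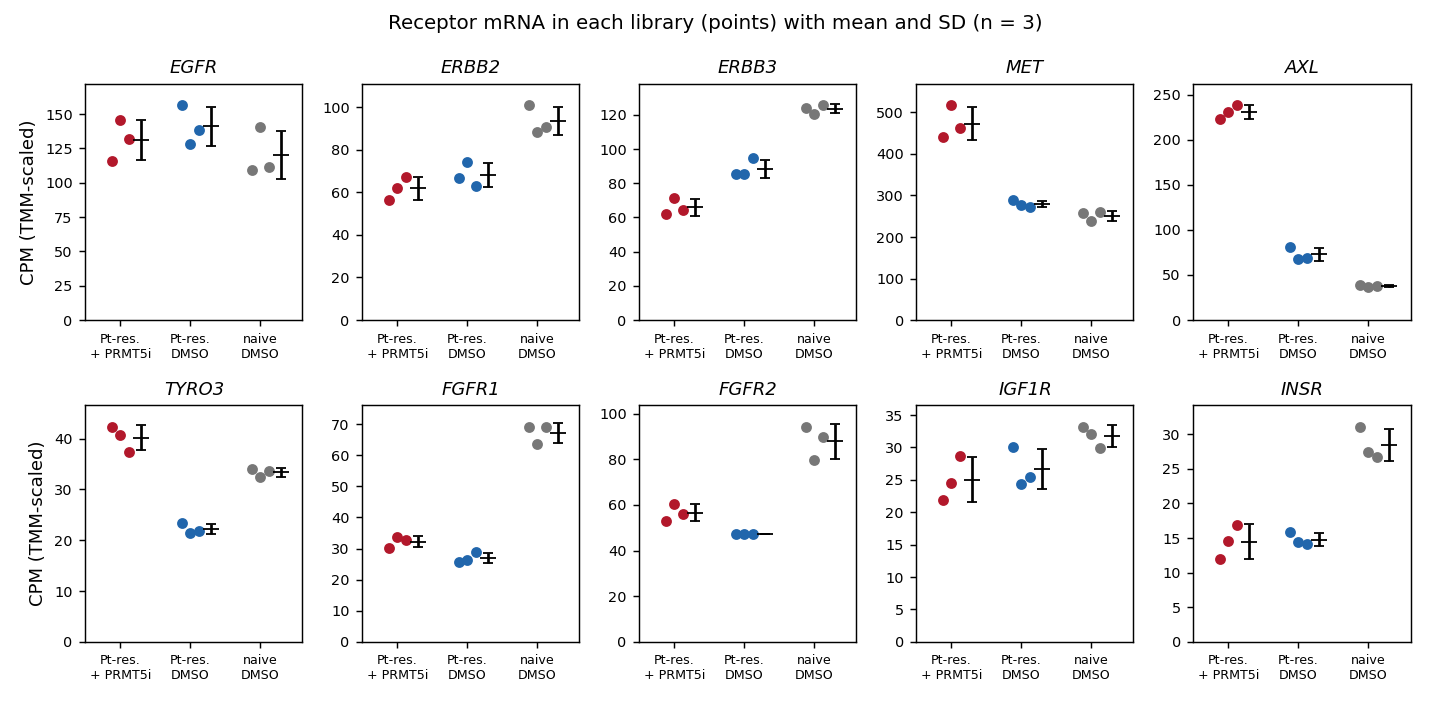
Each receptor's mRNA (y axis, TMM-scaled CPM from 0, a separate scale per panel) in the 3 groups, with a point for each library and the mean and SD (n = 3) beside them. AXL climbs to 223 to 238 CPM in treated cells, FGFR1 and INSR are high only in the naive libraries, and the 3 EGFR groups overlap.

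Within the ERBB family, EGFR, which binds EGF, TGFA and related ligands, differed from its partners. It read 116, 146 and 132 CPM in treated, 156, 129 and 138 CPM in Pt-resistant and 109, 141 and 111 CPM in naive libraries, and all groups overlapped. EGFR had a log2 fold change of 0.23 ± 0.10 in Pt-resistant against naive cells (adjusted p = 0.0522), -0.10 ± 0.10 with PRMT5i against DMSO (adjusted p = 0.372) and 0.12 ± 0.10 in treated against naive cells (adjusted p = 0.285). Naive replicate 2 set the top of the naive range, and without it EGFR passed as higher in Pt-resistant cells (0.35, adjusted p = 0.00294). It also passed without Pt-resistant replicate 2 (0.29, adjusted p = 0.0269). In treated against naive cells it passed without naive replicate 2 (0.24, adjusted p = 0.0311). The same naive library was the highest of the 3 for HBEGF, at 44.9 CPM against 20.6 and 17.4 CPM, and for JUN, at 326 CPM against 161 and 181 CPM, and the part of this in the EGFR value was not tested.

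ERBB3, the kinase-impaired partner that couples strongly to PI3K, fell in both steps. It stood at 62.3, 71.4 and 64.2 CPM in treated, 85.6, 85.3 and 94.7 CPM in Pt-resistant and 124, 121 and 126 CPM in naive libraries, again fully apart. The log2 fold change was -0.48 ± 0.08 in Pt-resistant against naive cells (adjusted p = 1.15e-05) and -0.43 ± 0.08 with PRMT5i against DMSO (adjusted p = 5.71e-05). ERBB3 was the sole receptor of the 10 that the test called lower with the inhibitor, and in treated cells it was 1.88-fold below naive cells (-0.91 ± 0.08, adjusted p = 5.96e-10).

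ERBB2, the ligand-less partner, read 56.5, 62.0 and 67.1 CPM in treated, 66.7, 74.3 and 63.2 CPM in Pt-resistant and 101, 88.6 and 90.8 CPM in naive libraries. The naive libraries were above the other 6, which overlapped each other. ERBB2 fell in Pt-resistant cells (-0.46 ± 0.09, adjusted p = 7.34e-05) and did not pass with PRMT5i (-0.14 ± 0.09, adjusted p = 0.175). ERBB4, the remaining family member and of far lower count, was also lower in Pt-resistant than in naive cells (-1.41 ± 0.20, adjusted p = 2.06e-06) and had 0.04 ± 0.23 with PRMT5i.

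Both FGF receptors were highest in naive cells. FGFR1, a receptor of FGF2, had 30.2, 33.7 and 32.7 CPM in treated, 25.7, 26.3 and 28.8 CPM in Pt-resistant and 69.1, 63.5 and 69.0 CPM in naive libraries. It was 2.5-fold lower in Pt-resistant than in naive cells (-1.32 ± 0.09, adjusted p = 5.25e-12), and PRMT5i raised it by 0.26 ± 0.09 over DMSO (adjusted p = 0.0144), which left it well below the naive level (-1.06 ± 0.08, adjusted p = 1.31e-10).

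FGFR2, whose splice forms differ between epithelial and mesenchymal cells, had 53.1, 60.5 and 56.2 CPM in treated, 47.4, 47.4 and 47.3 CPM in Pt-resistant and 94.2, 79.5 and 89.8 CPM in naive libraries. The 3 groups did not overlap for either gene. FGFR2 was 1.86-fold lower in Pt-resistant than in naive cells (-0.89 ± 0.08, adjusted p = 2.55e-09) and rose by 0.26 ± 0.08 with PRMT5i (adjusted p = 0.0104). The rises of FGFR1 and FGFR2 with PRMT5i were small, and both calls were lost without PRMT5i replicate 2, at 0.22 and 0.21 with adjusted p of 0.0596 and 0.0625.

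FGFR3 and FGFR4, the rest of the family, were lower in Pt-resistant than in naive cells as well, FGFR3 by 5.94-fold (-2.57 ± 0.12, adjusted p = 2.74e-14) and FGFR4 by 2-fold (adjusted p = 2.34e-09). With PRMT5i, FGFR4 rose (0.59 ± 0.09, adjusted p = 8.65e-06) and FGFR3 had 0.24 ± 0.14 (adjusted p = 0.143). All 4 FGF receptors were therefore called lower in the resistant line.

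The insulin receptor INSR, which controls glucose uptake and anabolic growth, read 11.9, 14.6 and 16.9 CPM in treated, 15.9, 14.4 and 14.1 CPM in Pt-resistant and 31.1, 27.5 and 26.7 CPM in naive libraries. The naive libraries were all above the other 6, and the treated and Pt-resistant libraries overlapped. INSR was 1.93-fold lower in Pt-resistant than in naive cells (-0.95 ± 0.11, adjusted p = 1.68e-07), and its value with PRMT5i against DMSO was -0.03 ± 0.12 (adjusted p = 0.847).

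IGF1R, the receptor for IGF1 and IGF2, read 22.0, 24.5 and 28.7 CPM in treated, 30.1, 24.3 and 25.5 CPM in Pt-resistant and 33.2, 32.1 and 29.9 CPM in naive libraries. The Pt-resistant and naive ranges overlapped, and the call against naive cells was marginal (-0.26 ± 0.10, adjusted p = 0.0392). It was lost under DESeq2 (adjusted p = 0.0714), without naive replicate 1 or 2 (0.118 and 0.0547) and without Pt-resistant replicate 2 or 3 (0.153 and 0.124). With PRMT5i against DMSO its value was -0.09 ± 0.11 (adjusted p = 0.494). Treated cells were below naive ones (-0.34 ± 0.11, adjusted p = 0.00714), a call lost without PRMT5i replicate 1 (-0.25, adjusted p = 0.0634).

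To compare receptors with each other, CPM were divided by the merged exon length of each gene in kilobases. Summed over the 10 receptors, this level was 152 ± 8.88 in treated, 95.0 ± 3.54 in Pt-resistant and 99.9 ± 2.68 in naive cells (CPM per kilobase, SD, n = 3). MET held the largest share of that sum in each group, 44.1 ± 1.43% in treated, 41.8 ± 0.586% in Pt-resistant and 35.8 ± 0.904% in naive cells. AXL followed at 29.4 ± 1.44% and 14.8 ± 0.912% in the treated and Pt-resistant groups, against 7.32 ± 0.0598% in naive cells, where it ranked below ERBB2.

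ERBB3 went the other way, with 4.78 ± 0.131% of the sum in treated, 10.3 ± 0.846% in Pt-resistant and 13.7 ± 0.215% in naive cells. The ratio of AXL to ERBB3 per kilobase was 6.28, 5.66 and 6.52 in treated, 1.66, 1.39 and 1.28 in Pt-resistant and 0.547, 0.526 and 0.531 in naive libraries. ERBB3 mRNA thus exceeded AXL mRNA in each naive library, and AXL exceeded ERBB3 in each of the other 6. That order held in treated and naive libraries with the longest transcript as length, but not in Pt-resistant ones, where the ratio was then 1.18, 0.994 and 0.913. For 3 against 3 libraries the smallest two-sided exact permutation p is 0.1, so no share could pass 0.05. The shares of 8 receptors reached it between Pt-resistant and naive cells, and those of all 10 between treated and Pt-resistant cells. The shares of a library add up to the whole, so they are tied and a share can change without its own mRNA. The share of FGFR2 was 4.90% in treated and 6.58% in Pt-resistant cells, though its CPM was called higher with PRMT5i.

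The order of levels per kilobase in naive cells was MET, ERBB3, FGFR2, EGFR, ERBB2, AXL, FGFR1, TYRO3, INSR and IGF1R. The ranges of FGFR2, EGFR and ERBB2 overlapped as neighbours there, as did those of TYRO3 and INSR. In treated cells the order was MET, AXL, EGFR, FGFR2, ERBB3, ERBB2, TYRO3, FGFR1, IGF1R and INSR, with overlap only between FGFR2 and ERBB3 and between IGF1R and INSR. In Pt-resistant cells MET, AXL and EGFR led, EGFR overlapped ERBB3, ERBB2 overlapped FGFR2, and TYRO3, FGFR1 and IGF1R overlapped along the order, above INSR. Some of these orders rest on the length used: with the longest transcript, ERBB2 came above ERBB3 and FGFR1 above TYRO3 in treated cells, both with overlap, and FGFR1 came above AXL in naive cells without overlap.

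**Figure D3:**
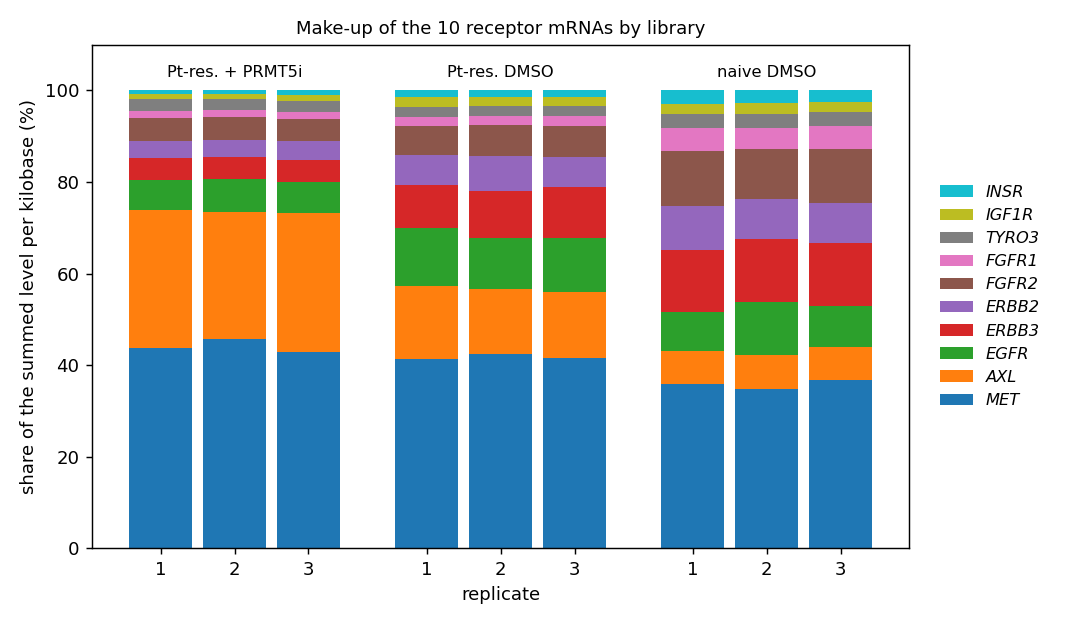
Share of the summed level per kilobase (y axis, percent) held by each of the 10 receptors (colours) in each library (bars, replicates 1 to 3 in each group). AXL takes 27.8% to 30.3% in treated, 14.2% to 15.9% in Pt-resistant and 7.25% to 7.35% in naive libraries, and ERBB3 and FGFR2 take smaller shares in the treated than in the naive libraries.

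The ligands of these receptors were read as a fixed list, chosen by pairing with a receptor, though with earlier results of these data known. Of 34 ligands 13 were abundant enough to test. In Pt-resistant against naive cells 8 rose, 4 fell and 1 did not pass (median log2 fold change 0.73, beside 0.01 over all genes). With PRMT5i against DMSO 6 rose, 3 fell and 4 did not pass (median 0.32, beside 0.01). Beside the counts for this list and the others stand the shares called over all genes tested. These were 59.1% in the first comparison (29.8% higher, 29.4% lower) and 62.4% in the second (31.9% higher, 30.5% lower). HGF had 1 count in all libraries together, IGF2 had 1, and IGF1 and INS had 0. Counted reads for the ligands of MET, IGF1R and INSR were thus at or near 0 at this depth. The counting omits reads that fall on overlapping genes, so a count near 0 need not mean that the mRNA was absent.

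Of the 13 ligands tested 5 bind EGFR, namely EGF, TGFA, AREG, BTC and HBEGF, and all 5 were among the 8 that rose in the resistant line. EGF and TGFA were 2 of the 6 that rose with PRMT5i, whereas AREG and HBEGF did not pass there and BTC fell. AREG, encoding amphiregulin, measured 13.7, 12.4 and 12.2 CPM in treated, 16.3, 10.8 and 13.2 CPM in Pt-resistant and 2.61, 2.27 and 2.02 CPM in naive libraries, 5.78-fold higher in Pt-resistant than in naive cells (2.53 ± 0.17, adjusted p = 1.28e-11). TGFA, encoding transforming growth factor alpha, rose in both steps, at 29.2, 34.1 and 31.2 CPM in treated, 17.8, 19.4 and 15.3 CPM in Pt-resistant and 9.26, 8.94 and 8.25 CPM in naive libraries (0.99 ± 0.12, adjusted p = 1.32e-07, and 0.85 ± 0.10 with PRMT5i, adjusted p = 1.97e-07). EGF, at lower counts, also rose in both (2.04 ± 0.30, adjusted p = 3.08e-06, and 0.69 ± 0.22, adjusted p = 0.00758).

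BTC, encoding betacellulin, rose in Pt-resistant cells (1.13 ± 0.15, adjusted p = 9.19e-07) and fell with PRMT5i (-1.30 ± 0.15, adjusted p = 1.23e-07). HBEGF rose in Pt-resistant cells with overlapping groups (0.73 ± 0.20, adjusted p = 0.00291), a call lost under DESeq2 (adjusted p = 0.0992), and had 0.32 ± 0.19 with PRMT5i (adjusted p = 0.148). The value with PRMT5i passed without a low-count filter (adjusted p = 0.00324), in a fit to just the groups compared (0.00378) and without Pt-resistant replicate 1 (0.0495). NRG1, a neuregulin that binds ERBB3 and ERBB4, fell in Pt-resistant cells (-0.47 ± 0.12, adjusted p = 0.00141) and rose with PRMT5i (0.46 ± 0.12, adjusted p = 0.00136). NRG4, a ligand of ERBB4, rose in Pt-resistant cells (0.55 ± 0.15, adjusted p = 0.0028) and had -0.22 ± 0.14 with PRMT5i.

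The TAM ligands differed from each other in the resistant line. GAS6, which binds AXL and TYRO3, fell in Pt-resistant against naive cells (-0.56 ± 0.11, adjusted p = 9.64e-05) and rose with PRMT5i (0.52 ± 0.11, adjusted p = 0.000221). PROS1, encoding protein S, which binds TYRO3 and MERTK, read 20.1, 22.8 and 20.4 CPM in treated, 7.63, 9.26 and 9.82 CPM in Pt-resistant and 3.47, 4.47 and 4.35 CPM in naive libraries, with no overlap. It rose in Pt-resistant cells (1.13 ± 0.15, adjusted p = 5.98e-07) and again with PRMT5i (1.24 ± 0.12, adjusted p = 5.87e-09).

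Among FGF ligands, FGF2 stood at 25.4, 28.0 and 24.3 CPM in treated, 30.4, 23.1 and 25.9 CPM in Pt-resistant and 1.70, 3.44 and 2.52 CPM in naive libraries. It was 10.5-fold higher in Pt-resistant than in naive cells (3.39 ± 0.16, adjusted p = 2.97e-14), in the same libraries where FGFR1 was 2.5-fold lower, and had -0.03 ± 0.12 with PRMT5i (adjusted p = 0.844). FGF9 differed under the inhibitor instead, at 6.45, 6.48 and 6.49 CPM in treated, 44.6, 39.4 and 40.2 CPM in Pt-resistant and 31.9, 51.6 and 31.4 CPM in naive libraries. FGF9 fell 6.38-fold with PRMT5i (-2.67 ± 0.16, adjusted p = 7.82e-13) and did not pass in Pt-resistant against naive cells (0.12 ± 0.13, adjusted p = 0.453). FGF18 fell in both comparisons (-0.52 ± 0.07 and -0.33 ± 0.08), and FGF1 had 82 counts in treated, 3 in Pt-resistant and 21 in naive cells.

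The IGF-binding proteins, secreted carriers that hold IGFs away from or near IGF1R, were all 6 tested, with 2 higher and 3 lower in Pt-resistant than in naive cells, and 2 higher and 2 lower under PRMT5i than under DMSO. IGFBP2 had 23.2, 19.1 and 21.4 CPM in treated, 21.6, 19.4 and 17.2 CPM in Pt-resistant and 335, 256 and 298 CPM in naive libraries, 15.3-fold lower in Pt-resistant than in naive cells (-3.93 ± 0.11, adjusted p = 1.15e-18). IGFBP3 fell 6.57-fold in Pt-resistant cells (-2.72 ± 0.10, adjusted p = 1.13e-16) and rose 2.05-fold with PRMT5i (1.03 ± 0.10, adjusted p = 5.35e-09). IGFBP6 rose 3.1-fold with PRMT5i (1.63 ± 0.20, adjusted p = 1.39e-07). IGFBP4 was the most abundant of the 6 in each group. It averaged 439.9 CPM in treated, 551.5 CPM in Pt-resistant and 475.2 CPM in naive cells. IGFBP4 rose in Pt-resistant cells (0.21 ± 0.07, adjusted p = 0.0161) and fell with PRMT5i (-0.33 ± 0.07, adjusted p = 0.00056). The rise was lost without naive replicate 2 or 3 or Pt-resistant replicate 1 (adjusted p of 0.0681, 0.0858 and 0.0524).

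**Figure D4:**
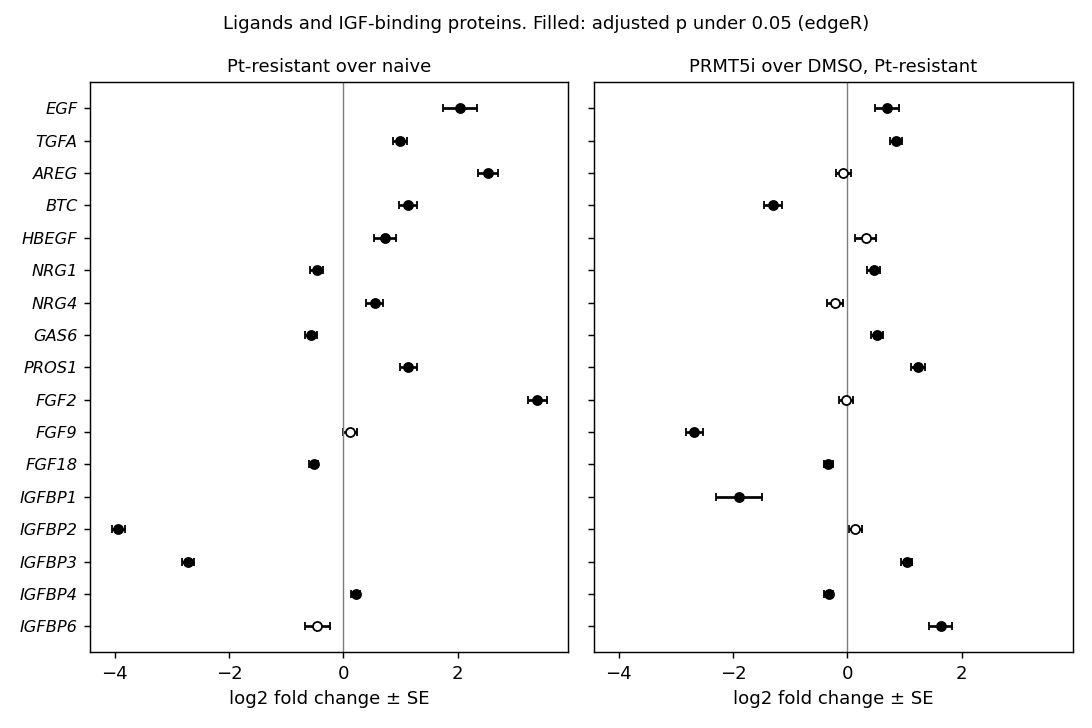
Log2 fold change (x axis, ± SE from edgeR) of ligands and IGF-binding proteins (rows) in Pt-resistant over naive cells (left) and PRMT5i over DMSO in Pt-resistant cells (right), filled where the adjusted p was under 0.05, with genes under 10 counts in either group left out. FGF2 lies at 3.39 on the left and -0.03 on the right, FGF9 at 0.12 and -2.67, and IGFBP2 at -3.93 and 0.14.

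The other receptor tyrosine kinases give the set a frame. Of 47 others 26 were tested, of which 4 rose, 16 fell and 6 did not pass in Pt-resistant against naive cells (median -0.80), and 11 rose, 2 fell and 13 did not pass with PRMT5i against DMSO (median 0.26). EPHB2, a receptor for ephrins on neighbouring cells, fell in Pt-resistant cells (-1.60 ± 0.15, adjusted p = 2.08e-09) and rose with PRMT5i (1.59 ± 0.15, adjusted p = 2.19e-09). DDR1, a collagen receptor, did likewise (-1.06 ± 0.09 and 0.72 ± 0.09, adjusted p of 6.71e-10 and 3.7e-07). ROR1, a WNT5A receptor, rose in both (0.79 ± 0.13 and 1.10 ± 0.12, adjusted p of 2.34e-05 and 2.47e-08), as AXL did.

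Below the receptors, 34 of 36 adaptors and effectors were tested. Against naive cells, 5 were higher, 11 lower and 18 not passed in Pt-resistant cells, and PRMT5i raised 10 and lowered 8, with 16 not passed. AKT1, the kinase downstream of PI3K, fell in Pt-resistant cells (-0.97 ± 0.08) and rose with PRMT5i (0.43 ± 0.08), and PLCG1, the phospholipase that docks on FGFR and EGFR tails, did the same (-0.87 ± 0.08 and 0.66 ± 0.08). FRS2, the docking adaptor of FGF receptors, rose in Pt-resistant cells (0.76 ± 0.09, adjusted p = 2.29e-07). PIK3R1, the regulatory subunit of PI3K, rose in Pt-resistant cells (0.65 ± 0.09) and fell with PRMT5i (-0.71 ± 0.09), where IRS2, the docking protein of INSR and IGF1R, also fell (-0.74 ± 0.10, adjusted p = 1.49e-06).

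Genes that MAPK signalling switches on or that feed back on it split in both directions. Of 17 tested, 7 were higher and 8 lower in Pt-resistant than in naive cells, and PRMT5i raised 8 and lowered 4. ETV4, a PEA3-family factor, fell in Pt-resistant cells (-1.84 ± 0.22, adjusted p = 1.87e-07) and rose with PRMT5i (2.17 ± 0.22, adjusted p = 8.12e-09). ETV5 of the same family rose in Pt-resistant cells (1.44 ± 0.11, adjusted p = 1.03e-10) and fell with PRMT5i (-0.27 ± 0.10, adjusted p = 0.0246). That fall was lost without Pt-resistant replicate 1 or PRMT5i replicate 3 (adjusted p of 0.257 and 0.0781). FOSL1, an AP-1 subunit, rose in both (1.68 ± 0.20 and 0.65 ± 0.16), and FOS fell in both (-1.04 ± 0.10 and -0.99 ± 0.11). DUSP5, a phosphatase of nuclear ERK, rose 2.96-fold with PRMT5i (1.57 ± 0.14, adjusted p = 1.43e-09).

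Of 27 tested genes for receptor processing and turnover, 10 were higher and 11 lower in Pt-resistant than in naive cells, and PRMT5i raised 13 and lowered 10. NEDD4, a ubiquitin ligase that acts on FGFR1 and IGF1R, rose in Pt-resistant cells (1.50 ± 0.10, adjusted p = 1.02e-11) and fell with PRMT5i (-1.27 ± 0.10, adjusted p = 1.49e-10). SDC1, a heparan sulfate proteoglycan that serves as an FGF and HGF co-receptor, fell 3.65-fold in Pt-resistant cells (-1.87 ± 0.08, adjusted p = 8.18e-15) and rose with PRMT5i (0.91 ± 0.08, adjusted p = 2.67e-09). ERRFI1, the feedback inhibitor of EGFR known as MIG6, fell in both (-0.50 ± 0.10 and -0.52 ± 0.10). GRB14, which binds and inhibits INSR, fell in Pt-resistant cells (-0.78 ± 0.14) and rose with PRMT5i (1.01 ± 0.14).

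Of 12 transcription regulators linked to receptor genes, 3 were higher and 5 lower in Pt-resistant than in naive cells, and PRMT5i raised 4 and lowered 3. ETS1 read 157, 159 and 166 CPM in treated, 46.7, 33.3 and 39.2 CPM in Pt-resistant and 63.2, 59.3 and 60.0 CPM in naive libraries, and rose 4.06-fold with PRMT5i (2.02 ± 0.09, adjusted p = 2.57e-14) after a lower level in Pt-resistant than in naive cells (-0.62 ± 0.10). HMGA1, an architectural chromatin protein studied as a regulator of INSR, fell in Pt-resistant cells (-1.01 ± 0.07) and rose with PRMT5i (1.22 ± 0.07, adjusted p = 1.77e-12). WWTR1, encoding the Hippo effector TAZ, fell in Pt-resistant cells (-0.37 ± 0.08, adjusted p = 0.000201) and rose 2.09-fold with PRMT5i (1.06 ± 0.08, adjusted p = 3.43e-11). FOXO4, of a family that acts on ERBB3 and INSR genes, rose in Pt-resistant cells (1.18 ± 0.13, adjusted p = 2.62e-08) and fell with PRMT5i (-0.59 ± 0.12, adjusted p = 0.000149).

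Last, 10 splicing regulators of the FGFR2 and INSR transcripts were read, since gene counts do not tell splice forms apart. Of these 6 were higher and 2 lower in Pt-resistant than in naive cells, and PRMT5i raised 1 and lowered 4. ESRP1, which with ESRP2 sets the epithelial splice form of FGFR2, had 96.7, 108 and 101 CPM in treated, 239, 205 and 213 CPM in Pt-resistant and 240.0, 260.0 and 226 CPM in naive libraries. It fell 2.15-fold with PRMT5i (-1.10 ± 0.08, adjusted p = 5.89e-11), as ESRP2 fell 2.23-fold (-1.16 ± 0.11, adjusted p = 3.78e-09). MBNL2, a paralog of the INSR splicing factor MBNL1, rose in Pt-resistant cells (0.85 ± 0.11, adjusted p = 5.6e-07). The splice forms themselves were not measured.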

How the data were processed

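RNA of the 9 OVCAR4 libraries was sequenced by the study from a directional NEB kit. Per the labels the authors used FastQC and STAR, and they deposited raw counts per gene. Versions, genome build, annotation and strand column were not given in the sources used here, and gene coordinates are left out. The STAR counting mode omits multi-mapped and ambiguous reads, so receptors, ligands and other genes that share sequence with paralogs or overlap another gene may be undercounted. Libraries were grouped by the labels.

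Counts were fitted in R 4.3.3 with edgeR 4.0.16 over all 9 libraries without covariates, after filterByExpr (minimum count 10) and TMM scaling. The quasi-likelihood test was adjusted by Benjamini-Hochberg over all 14630 genes tested, with a threshold of 0.05. SE is the log2 fold change over the root of F. The biological coefficient of variation was 7.66%, and totals of 14320929 to 19114811 counts set the precision. The fit was tested on simulated data in which far fewer genes differed than were called here. That test cannot show how the fit or its scaling does when most genes differ. Symbols came from a table that matched 61369 of 61487 IDs, and 105 more from GENCODE 29, which also gave merged exon lengths. Upstream windows came from RefSeq.

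The members and lists were chosen with earlier results of these data known. All 10 receptors are named. From each other list up to 4 genes per comparison could be named. These were genes that passed with the largest change, among those whose groups were apart and whose higher group averaged at least 5 CPM. Only some of them are named, so a larger change in a list may go unnamed. STYK1 with PRMT5i, among the other receptor tyrosine kinases, is such a case (log2 fold change 1.32). Tested ligands could be named regardless, and WT1, KRT7, MS4A1 and DCN as markers. MERTK, FGFR4, ERRFI1, EPCAM, PAX8, KRT18, PECAM1, CDH5 and COL1A1 were added after values were seen. So was the second comparison's value of a gene the rule took from the first, or the reverse. Alternatives were RLE size factors, library totals, DESeq2 1.42.0, limma-voom (limma 3.58.1), 2 other filters, a fit to just the compared groups, a replicate block, leaving out single libraries and, for levels, the longest transcript. The study's chromatin data were not analysed here.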

Additional observations from a re-analysis of the deposited data

How the results depend on the processing

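Of 420 alternative values for the receptors, 402 kept direction and side of the threshold, 9 lost the call, 5 gained it and 4 changed sign. The count of receptors called higher in Pt-resistant against naive cells was 1, and 2 under limma-voom and without a low-count filter, where EGFR passed, and 1 to 2 with a library left out. That with PRMT5i against DMSO was 5, and 3 to 5 with a library left out. Values that changed sign had not passed, and did so with a library left out. With PRMT5i against DMSO, the log2 fold change ran over -0.196 to 0.0128 for IGF1R, -0.159 to 0.0977 for INSR, -0.235 to 0.225 for ERBB4, -0.120 to 0.0818 for FGF2 and -0.208 to 0.0892 for AREG. In Pt-resistant against naive cells it ran over -0.00609 to 0.379 for FGF9, which passed without naive replicate 2 (adjusted p = 0.00135), and -0.127 to 0.0125 for PDPK1. Deviations of same-numbered libraries were correlated at -0.0758 to 0.0995, and those of differently numbered ones at -0.112 to 0.0785. The labels do not say whether replicate numbers pair the libraries, and correlations this weak cannot settle it. With the replicate block, 1 receptor was called higher and 6 lower in Pt-resistant cells, since IGF1R lost its call (adjusted p = 0.0501), and 4389 genes were called higher and 4299 lower, against 4357 and 4294 without. With PRMT5i against DMSO the block gave 5 higher and 1 lower.

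Levels per kilobase depend on the length used. With the longest transcript in place of merged exons, the summed level was 183.8, 122 and 139 in treated, Pt-resistant and naive cells. In the same order MET then held 38.8%, 34.5% and 27.3%, AXL 26.5%, 12.5% and 5.73%, ERBB2 6.83%, 11.3% and 13.7%, ERBB3 6.06%, 12.2% and 15.1%, FGFR2 7.05%, 8.86% and 14.5%, FGFR1 2.82%, 3.55% and 7.79%, and TYRO3 2.67%, 2.21% and 2.93%. EGFR held 7.25% in treated cells, and in Pt-resistant and naive cells IGF1R held 1.78% and 1.87% and INSR 1.35% and 2.29%. Splice forms and proteins are beyond what gene counts show.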

Other observations

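The genes whose log2 CPM followed each receptor most closely across the 9 libraries were found among 10556 genes, as a description without a test, since the points share 3 groups and any gene with the same group pattern scores high. AXL was followed most closely by SOD2, the mitochondrial superoxide dismutase (Pearson 0.999), MET by LAMB1, a laminin chain (0.992), TYRO3 by PLP2 (0.998) and ERBB3 by THBS3, a thrombospondin (0.995). FGFR1 was followed by MACROD2 (0.998), FGFR2 by OCEL1 (0.994) and INSR by TBL1X, a corepressor subunit (0.992). EGFR had SASH1 (0.983), ERBB2 had RPS6KA1, the ribosomal S6 kinase RSK1 (0.981), and IGF1R had ZC3H4 (0.97). By Spearman correlation other genes came first for all but IGF1R, TGFBI for AXL among them. Among the receptors themselves, the Pearson correlation was 0.986 between FGFR1 and FGFR2, 0.968 between AXL and MET and -0.966 between AXL and ERBB3, while EGFR stayed between -0.576 and 0.244 with all the others.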
